A study of Mus musculus with 3 samples.

Results

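Transcripts that keep intronic sequence were described in the cytosolic RNA of macrophages stimulated with lipid A. The transcripts were selected on their level and their annotation: GENCODE M21 gives them the transcript type retained_intron, and their mean TPM (a length-scaled share of the library's transcripts, with a fixed sum) was at least 1 over 3 libraries. The rule took 860 of the 21848 annotated transcripts of this type. They made up 6.13% of the 14029 transcripts of any type at that level, and lay in 698 parent genes. All 141862 annotated transcripts had values in the tables. The libraries are 1 group, with no untreated cells, no other time and no nuclear fraction, so that no effect of lipid A and no difference between compartments could be measured. The RNA was total RNA without ribosomal RNA, isolated from the cytosol of macrophages that had been derived from the bone marrow of C57BL/6J mice. Stimulation was with 100 ng/ml of lipid A, the part of bacterial lipopolysaccharide that the receptor TLR4 recognises, for 120 min. The labels number the libraries as biological replicates 1, 2 and 3 and give them the same donor, without sex or age, and whether the cultures were grown separately is not given in the sources used here. Measures of spread therefore describe these libraries and may be technical.

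The spliceosome removes introns between a GT at their start and an AG at their end. An intron that stays in the RNA usually brings an in-frame stop codon or shifts the reading frame. Such RNAs are often held in the nucleus until they are spliced or degraded, and those exported can be destroyed by nonsense-mediated decay, the pathway that removes mRNAs with early stop codons. GENCODE uses retained_intron for transcripts that hold intronic sequence relative to the coding transcripts of the same locus. Many of these models are partial and end inside the intron, because the cDNA they were built from ended there.

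All 9 macrophage markers examined were at TPM of 19.1 or more, and among them the lysozyme gene Lyz2 reached a mean of 4039. Of the T cell, B cell, neutrophil, erythroid and stromal markers, 2 of 22 were at TPM of at least 1, Cd4 at 18.2 and S100a8 at 8.32. Replicate 2 was the deepest library and stood apart in its nuclear RNA. The expected counts summed to 31152786, 114031592 and 59693299 in replicates 1, 2 and 3. Malat1, a long noncoding RNA of nuclear speckles, was at TPM of 741 in replicate 1, 178 in replicate 2 and 812 in replicate 3. Neat1, which builds paraspeckles, was at 42.6, 14.4 and 50.8 in the same order. The other nuclear RNAs of the list, Xist, Kcnq1ot1 and Rn7sk, were also lowest in replicate 2.

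Introns of 6 of the members are printed because each member took most of the TPM of its gene and keeps a short intron that separates coding exons. They are the 6 with the highest IsoPct among 10 such introns of at most 200 nt. Each is read from the GENCODE M21 transcript, 5′ to 3′, with up to 9 exon bases on either side in lower case. Capitals mark the GT and AG at the ends of the intron and the first in-frame stop codon, if any.
Rps20-201: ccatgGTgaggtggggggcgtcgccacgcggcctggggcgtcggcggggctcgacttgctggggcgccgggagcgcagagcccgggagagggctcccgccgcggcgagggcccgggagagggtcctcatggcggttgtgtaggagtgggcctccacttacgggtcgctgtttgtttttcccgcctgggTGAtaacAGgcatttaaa
Cd83-202: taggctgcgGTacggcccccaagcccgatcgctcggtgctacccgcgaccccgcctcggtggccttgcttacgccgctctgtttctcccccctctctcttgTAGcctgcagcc
Prelid1-202: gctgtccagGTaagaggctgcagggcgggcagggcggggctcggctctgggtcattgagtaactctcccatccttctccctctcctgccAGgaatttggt
Mrps26-201: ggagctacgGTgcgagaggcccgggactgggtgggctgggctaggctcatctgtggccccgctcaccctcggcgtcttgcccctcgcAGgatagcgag
Ncl-202: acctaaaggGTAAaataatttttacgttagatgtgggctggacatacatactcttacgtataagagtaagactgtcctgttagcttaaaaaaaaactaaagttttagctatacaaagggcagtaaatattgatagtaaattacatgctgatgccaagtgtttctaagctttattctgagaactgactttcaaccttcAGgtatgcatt
Tap2-202: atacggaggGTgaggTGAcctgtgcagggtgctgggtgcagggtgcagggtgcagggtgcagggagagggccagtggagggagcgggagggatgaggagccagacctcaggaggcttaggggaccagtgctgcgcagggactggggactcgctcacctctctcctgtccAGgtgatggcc
The intron of Rps20-201 (chr4:3835292-3835483, minus strand, mm10) is 192 nt long and directly follows the start codon, so that translation from it would run into intronic sequence. Its first in-frame stop lies at base 184 of the intron. The intron of Cd83-202 (chr13:43785251-43785345, plus strand) is 95 nt long and its stop codon is formed by its last 3 bases. Those of Prelid1-202 (chr13:55324445-55324526, plus strand) and Mrps26-201 (chr2:130564228-130564307, plus strand), of 82 and 80 nt, hold no in-frame stop. Neither length is a multiple of 3, so both shift the frame of the exon that follows. The intron of Ncl-202 (chr1:86352320-86352509, minus strand), of 190 nt, opens with a stop from its base 2, and that of Tap2-202 (chr17:34212068-34212229, plus strand), of 162 nt, has one at base 7. G and C make up 71.9% of the Rps20 intron and 32.6% of the Ncl intron.

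**Figure D1:**
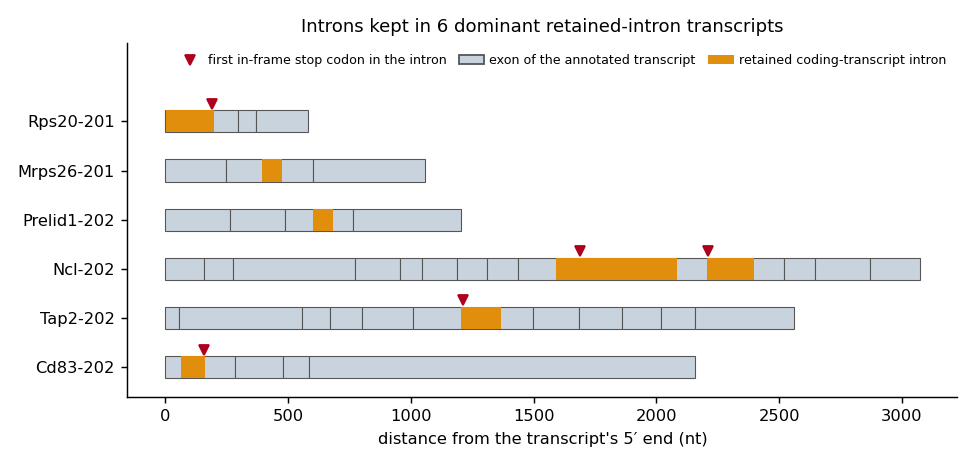
Exons (grey, divided at exon joins) and retained introns (orange) along 6 dominant retained-intron transcripts, in nt from the 5′ end of each transcript. Red triangles mark the first in-frame stop codon of an intron. Rps20-201 and Cd83-202 keep their intron near the 5′ end, Ncl-202 keeps 2 introns, and Mrps26-201 and Prelid1-202 have no triangle.

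Most members did not hold a complete intron. Of the 860, 236 (27.4%) spanned at least 1 whole intron of a coding transcript of their gene, 605 (70.3%) held part of an intron and no whole one, 10 held neither, and 9 belonged to a gene without a coding transcript. An intron of one coding transcript can be exon in another, and for 2 of the 236, among them Srsf1-203, no base lay outside the exons of all coding transcripts, so that 12 members had no such base. Among the members with part of an intron, 343 began inside it and ended in an exon, 221 began in an exon and ended inside it, and 29 had both ends in introns. Of the 20988 retained_intron transcripts below the threshold, 29.7% spanned a whole intron. The order of the partial models was the opposite there: 4975 (35.0%) of the 14213 began inside an intron and ended in an exon and 6986 (49.2%) began in an exon and ended inside an intron, against 56.7% and 36.5% of the partial members. Members held less sequence of their own than those transcripts. The median share of bases outside all exons of the coding transcripts was 20.1% of the length in members and 42.9% below the threshold, or 186 against 364 bases. This share was under 10% for 228 of the 851 members with a coding transcript (26.8%) and for 8.75% of the transcripts below the threshold. It was over 50% for 182 members (21.4%) and for 41.7% of the transcripts below the threshold. These are descriptions of the annotation, as the level that chose the members is estimated from the same bases.

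Members spanned 346 different whole introns, with a median length of 255 nt against 276 nt below the threshold. Introns were told apart by their coordinates. Overlapping versions therefore count separately, such as those of 422, 403 and 381 nt in Mtch1-203. The shortest counted was an annotated gap of 2 nt. Of these introns, 337 (97.4%) began with GT and ended with AG. The last intron of the coding transcript made up 17.1% of them, against 9.45% of the introns kept below the threshold. Of the 304 introns that separated coding exons, 268 (88.2%) held an in-frame stop codon, counted from the annotated start codon, and 12 of the others had a length that is a multiple of 3, so that reading could continue in frame. The share with a stop was 88.6% below the threshold. The first stop lay a median of 30 nt into the intron. A small RNA gene, such as a snoRNA or a microRNA hairpin, lay within 14 members. Among them Taf1d-203 (TPM 2.80) contains several such genes, and Zfas1-202 (1.18) contains Snord12. The tables do not separate the small RNA from its host transcript.

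The level of the members, which the rule used, is given as a description. Their mean TPM had a median of 2.31 and quartiles of 1.36 and 5.08. It was at least 10 for 105 members and at least 100 for 8. The highest was H2-K1-215, a transcript of a classical MHC class I heavy chain gene (chr17:33996106-33996674, minus strand, mm10), at TPM of 419.9, 352 and 385 in replicates 1, 2 and 3. It differs from the exons of the coding transcripts by only 20 of its 457 bases, at its 5′ end. Vim-203, from the gene of the intermediate filament vimentin, had 329.9, 384 and 367, with 52 extra bases of 535. Replicate 2 was the lowest for H2-K1-215 and the highest for Vim-203.

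Ctsb-202, from the gene of the lysosomal protease cathepsin B, was at 286, 179.9 and 148, the widest spread among the 12 highest members. Cd83-202, which encodes no protein by annotation and comes from the gene of the activation antigen CD83, was at 184, 132 and 126 (147 ± 31.6, SD, n = 3). Itm2b-202, from the gene of an integral membrane protein, was at 154, 150.1 and 128. Replicate 1 was the highest of the libraries in all 3. Rps20-201 and Rps16-203, from genes of the small ribosomal subunit, were at 132 ± 22.8 and 115 ± 10.2 (SD, n = 3). Tnip3-205, from the gene of a protein that binds the NF-κB regulator A20, was at 125, 128 and 86.5, low in replicate 3. The remaining members among the 12 were Rpl13a-213 (89.6), Trf-209 (77.2, the iron carrier transferrin, with 10 extra bases), Rpl15-206 (70.6) and Fxyd5-214 (66.4, a regulator of the sodium pump). Of these 12, 9 held part of an intron and 3, Cd83-202, Rps20-201 and Fxyd5-214, a whole intron. The intron of Fxyd5-214 is 92 nt long, but only 7 bases of this member lie outside the exons of all coding transcripts. Most of that intron is therefore exon in another coding transcript.

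**Figure D2:**
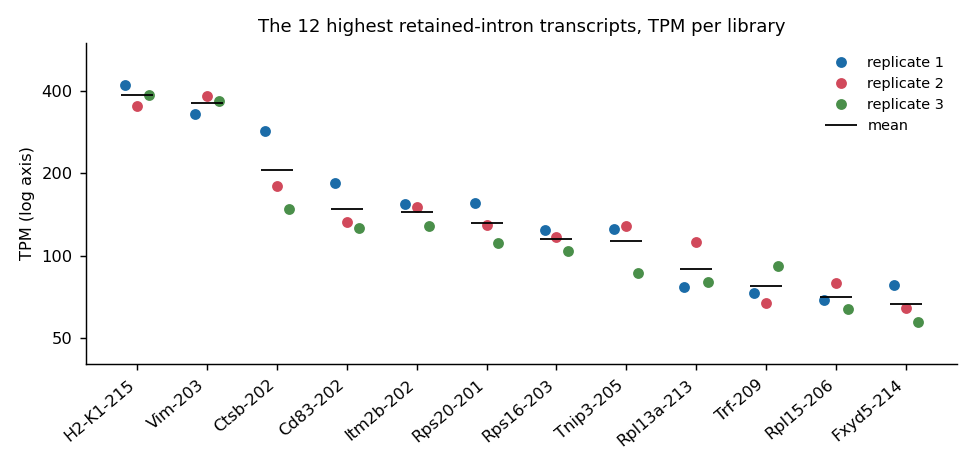
TPM (log axis) of the 12 highest members in replicates 1, 2 and 3 (points) with the mean (bar). H2-K1-215 and Vim-203 lie above 300 in all libraries, and Ctsb-202 has the widest spread, from 148 to 286.

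IsoPct, a deposited column, is the percent of a gene's TPM given to a transcript. Its median over the members was 12.8, and 374 members took under 10% of their gene. A mean IsoPct of at least 50, called dominant here, was reached by 61 members (7.09%) in 61 genes, against 52.9% of all transcripts at mean TPM of at least 1. Protein-coding transcripts reached it in 58.9% of cases, transcripts annotated for nonsense-mediated decay in 13.1%, and processed transcripts, which have no reading frame, in 13.3%. The dominant members had a median TPM of 8.37 and lay in genes with a median TPM of 13.1. Coding transcripts made up under 10% of the gene for 12 of the 61. These include the 3 in genes without a coding transcript, where the share is 0 by annotation. Of the 61, 51 reached 50% in every library. Few bases often set a dominant member apart: 24 of the 58 with a coding transcript had under 10% of their length outside its exons.

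Some of the dominant members came from genes of the ribosome and of mitochondria. Rps20-201 took 91.3%, 90.1% and 89.0% of its gene in replicates 1, 2 and 3, and its coding transcript Rps20-203 took 9.58% on average. Mrpl57-202 and Mrps26-201, from genes of mitochondrial ribosomal proteins, took 94.2% and 88.3% at TPM of 7.23 and 2.93. Prelid1-202, from the gene of a carrier of phosphatidic acid between the mitochondrial membranes, took 80.2%, 84.5% and 83.8% at TPM of 32.5, 36.3 and 38.8. Timm17a-204, from the gene of an inner membrane translocase subunit, took 79.4% but has only 4 bases outside the exons of coding transcripts. Its percent was 82.3, 72.6 and 83.3 in the libraries, low in replicate 2. Rps16-203 was the other dominant member of a cytosolic ribosomal protein gene, at 72.2%.

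Immune genes were also among the dominant parents. Cd83-202 took 77.6%, 76.7% and 72.5% of its gene, whose coding transcript Cd83-201 took 24.4% on average. Tap2-202, from the gene of a subunit of the peptide transporter that loads MHC class I molecules, took 77.3% at TPM of 10.1 ± 1.00 (SD, n = 3). Tnip3-205 took 53.5%, 67.9% and 56.9%, so that it was above 50% in every library and highest in replicate 2. Ncl-202, from the gene of the nucleolar protein nucleolin, took 78.7%, 80.8% and 78.1% at TPM of 23.8 ± 0.863 (SD, n = 3). It keeps the intron shown above and another of 492 nt. Psmb8-205, from an immunoproteasome subunit gene, was just under the line at 47.6%, beside 46.3% for the coding transcript Psmb8-203.

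The highest IsoPct belonged to Exoc3l4-211 (chr12:111429254-111431159, plus strand), at 96.7% and TPM of 15.01, 14.9 and 16.1. The next was Ptger1-202, from a prostaglandin E receptor gene, at 95.2% but with TPM of 0.74, 1.69 and 1.02. Exoc3l4-211 shares 387 bases with exons of Gm10425 on the other strand, a gene at TPM of 1.24. The strand setting of the counting is not given in the sources used here, so reads of such pairs cannot be told apart. An overlap with an expressed gene on the other strand was present for 56 of the 860 members and 9 of the 61 dominant ones. Ptger1-202 is among the 9. Tmem132a-203 (88.2%, TPM 35.1) is too, with 225 bases shared with Slc15a3, a gene at TPM of 148. The others of the 15 highest were Gm43305-201 (92.8%), a gene without a coding transcript, Chic2-202 (88.8%), Tnni2-203 (76.5%) and Rgs3-207 (75.4%). Tnni2-203, from a troponin gene, varied most among the 15, with 53.7% in replicate 1 and 95.8% in replicate 2.

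**Figure D3:**
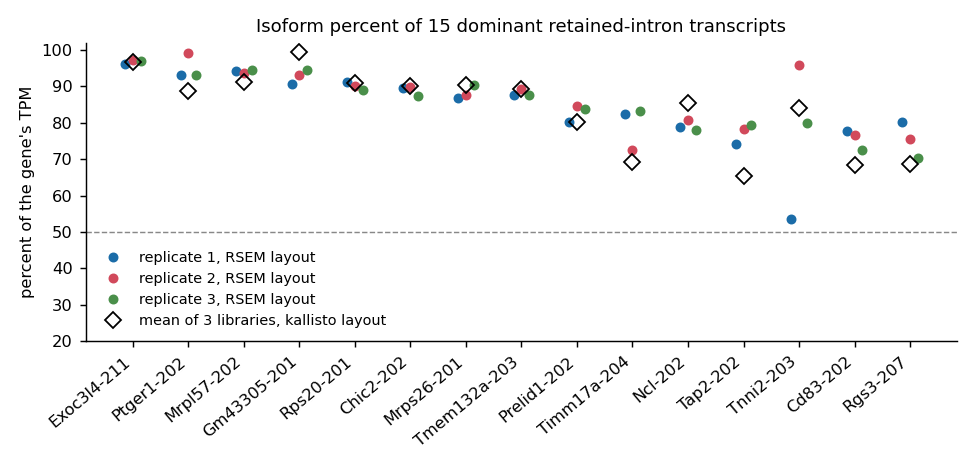
Percent of the gene's TPM taken by 15 dominant members in replicates 1, 2 and 3 of the RSEM-layout tables (points) and as the mean of the kallisto-layout tables (diamonds), with a dashed line at 50. All points lie above the line, and Tnni2-203 in replicate 1 is the lowest at 53.7%.

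At least 1 member was present in 698 of the 9148 genes at gene TPM of at least 1 (7.63%). A gene had 1 member in 581 cases, 2 in 89 and 3 in 19. The most, 8, belonged to Lilr4b and 5 each to Lilrb4a, Samhd1, Zc3h7a and Malt1. Lilr4b and Lilrb4a are similar leukocyte receptor genes, so reads could be divided between them in a way that the tables do not show. The share of genes with a member rose with the level of the gene: 3.08% of genes at TPM from 1 to 10 had a member, 13.3% from 10 to 50 and 22.7% at 50 or more. The lists of genes below are therefore read against genes at 50 or more. Splicing regulators are also read against genes at lower levels, where most of them lay. The range from 50 has no upper end, so the lists are not matched for level within it.

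Inflammatory and feedback genes downstream of TLR4 had a member in 21 of 52 genes, and in 17 of the 33 at gene TPM of at least 50 (51.5%, against 22.7% of all such genes). Their 33 members had a median TPM of 2.94 and a median IsoPct of 2.22, and 1 was dominant, Tnip3-205. Some of these genes lie far above 50, such as Il1b at gene TPM of 554, where Il1b-203 passed the rule with 0.253% of its gene. The 51.5% and 22.7% are therefore not matched for level. Cd14-202, from the gene of the TLR4 co-receptor, was at TPM of 31.5, 31.9 and 39.3 and took 6.60% of its gene. Sod2-204, from the gene of mitochondrial superoxide dismutase, was at 14.7, 35.97 and 34.6, low in replicate 1. Cd14-202 keeps an intron of 91 nt without an in-frame stop.

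Interferon response genes had a member in 19 of 42 genes, and in 12 of the 22 at TPM of at least 50 (54.5%). Their 33 members had a median IsoPct of 6.10 and none was dominant. Psmb8-205 was at TPM of 23.7, 24.9 and 22.6. Ifih1-203, from the gene of the RNA sensor MDA5, was at 27.8, 19.9 and 22.5, and 1568 of its 2565 bases lie outside coding exons. Oasl2-204, from an oligoadenylate synthetase-like gene, was at 19.6, 16.1 and 13.5.

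Splicing regulators had 15 members in 13 of 59 detected genes, at a median TPM of 1.30, and none was dominant. A member was present in 2 of the 9 such genes at TPM of at least 50 (22.2%), near the 22.7% of all genes at that level. Most of the list lay at gene TPM from 10 to 50, where 10 of 36 had a member (27.8%, against 13.3% of all genes). From 1 to 10 it was 1 of 14 (7.14%, against 3.08%). Hnrnpm-213 was the highest at TPM of 15.6, 4.10 and 8.34, with replicate 1 far above the others. Srsf1-203 (2.46) and Srsf5-212 (2.34) followed, both from genes of SR proteins. Srsf5-212 was at 3.37, 0.68 and 2.98, lowest in replicate 2. Of the 24 early response transcription factors, 23 were detected, 1 of the 4 at TPM of at least 50 had a member, and 2 had one in all, Klf6-202 at 2.63 and Egr3-202 at 2.07 with an IsoPct of 48.3. Hosts of snoRNAs and other noncoding RNAs had 5 members in 20 detected genes, and in 2 of the 3 at TPM of at least 50, with Ncl-202, Taf1d-203 and Rack1-203 (2.59) the highest. Lysosomal and macrophage genes had 18 members in 11 of 35 detected genes, at a median IsoPct of 0.857, and in 10 of the 30 at TPM of at least 50 (33.3%). Ctsb-202 led them, and Ctsa-212, from the gene of another lysosomal protease, was at 8.23. Cytosolic ribosomal protein genes had 14 members in 13 of 81 detected genes. Their median TPM of 23.8 was the highest of the 7 lists, and 13 of the 77 such genes at TPM of at least 50 had a member (16.9%).

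Each library was also quantified in a table of the kallisto layout, from the same reads, so this is not independent evidence. Its TPM was multiplied by 2.28, 2.30 and 3.39 in replicates 1, 2 and 3 to give protein-coding genes the same total as in the RSEM-layout tables. On this scale 701 of the 860 members (81.5%) were at TPM of at least 1, against 91.1% of all 14029 transcripts. The means lay within 2-fold for 616 members (71.6%), against 87.0% of all transcripts and 91.5% of protein-coding ones. Processed transcripts and those annotated for nonsense-mediated decay, which are also rival isoforms of coding genes, were within 2-fold in 69.1% and 74.0% of cases. Among the members outside 2-fold, 163 were lower and 81 higher in the kallisto layout, near the split over all 14029 transcripts, of 1217 and 603. Members with a whole intron were within 2-fold in 80.1% of cases and those with part of an intron in 68.1%. The share was 92.3% for members with over 50% of their length outside coding exons and 61.0% for those with under 10%.

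The median ratio was near 1, at 0.01 on the log2 scale, with large exceptions. P2rx7-205, Akr1b3-204, Creld1-202, Emilin1-203 and Safb-212 had the lowest ratios, with mean TPM of 1.12, 1.97, 1.02, 1.27 and 1.67 in the RSEM layout and under 0.01 in the other. P2rx7-205 has no base outside the exons of coding transcripts. Larger absolute gaps, named after their values were seen, were those of Anpep-206, Aplp2-207 and Tfrc-204. Anpep-206, from the aminopeptidase N gene, was at 34.0, 85.6 and 75.3 in the RSEM layout and at 0.48, 0.35 and 0.69 in the other. In the opposite direction, Cmpk2-203, Gm43305-201, Mx1-208, Gnb1-205 and Cox7b-203 had the largest ratios. Gm43305-201 was at TPM of 5.50, 5.51 and 4.71 and at 70.7, 63.5 and 60.9 in the kallisto layout, and Mx1-208, from an interferon-induced GTPase gene, at 2.63 and 29.2 on average. Ctsb-202 was also far higher there, at a mean of 940.2 against 205. Of the listed members above, Hnrnpm-213 was at 8.75, 0.17 and 1.16 there and Klf6-202 at 16.4, 9.90 and 7.92. For these transcripts the level depends on the quantification, and the expressed amount is not settled by these tables.

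In the kallisto layout 58 members (6.74%) took at least 50% of their gene, against 48.9% of all 14029 transcripts, and 48 of them were among the 61. Rps20-201 took 91.0%, Cd83-202 68.5%, Prelid1-202 80.1% and Ncl-202 85.4%. The lowest of the 15 with the highest IsoPct was Tap2-202, at 65.5%. The lowest of the 61 was Capns1-208, at 53.9% in the RSEM layout and 25.7% in the other.

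**Figure D4:**
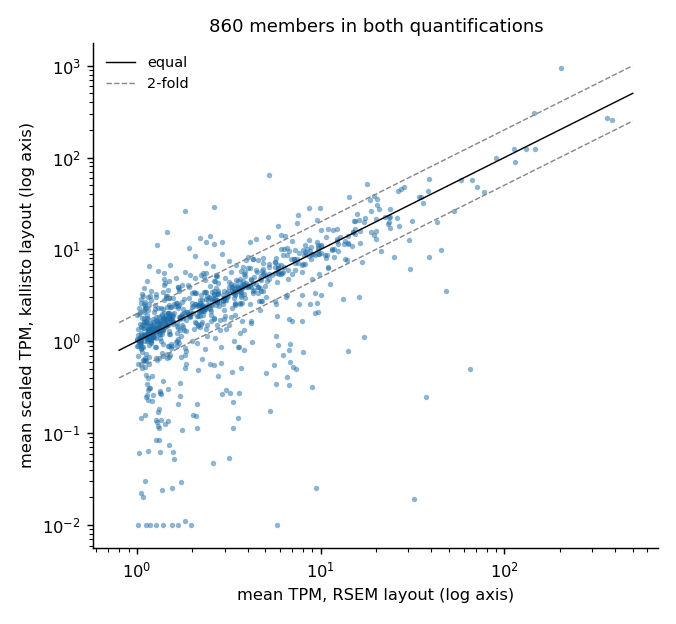
Mean TPM of the 860 members in the RSEM layout (horizontal) and mean scaled TPM in the kallisto layout (vertical), both on log axes, with the line of equality and lines at 2-fold. Most points lie between the dashed lines, 163 lie below them, and 9 members under 0.01 are drawn at 0.01.

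The share of members called as varying between libraries was near that of all transcripts of their level, but members had fewer counts. The median count was 277 in members and 985 over all transcripts at mean TPM of at least 1. A call depends on the count and its assignment error, so near-equal shares do not mean near-equal spread. A heterogeneity chi-square test over the 3 libraries, on expected counts scaled by TMM with counting and assignment error in the variance and Benjamini-Hochberg adjustment over all 35004 transcripts tested, called 509 of the 859 members with a mean count of at least 10. That is 59.3%, against 61.5% of all transcripts at mean TPM of at least 1 and 43.0% of all tested. The test sets the spread between libraries against counting and assignment error only, not against variation between cultures. Without replicate 2 the count was 207, or 21.5% of the members tested. The share over all 32993 transcripts tested there, of any level, was 15.3%, to be set beside the 43.0% and not the 61.5%. The median ratio of the highest to the lowest library was 1.82 for members and 1.29 for all transcripts at this level. Assignment was less certain too: the deposited posterior SD was a median of 5.64% of the count in replicate 2, against 2.05% for protein-coding transcripts.

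The members with the largest spread among those called were Rps23-202, Pf4-202, Pld3-208, Dnajc19-205, Riok3-202 and Rela-203. Rps23-202 was listed at 0 in replicate 1 and was at TPM of 17.8 and 24.7 in the others, and Pf4-202, from the platelet factor 4 gene, was listed at 0, 13.7 and 8.35. Dnajc19-205 was at 6.89, 3.23 and 0.05. Most are short, between 360 and 506 nt, and only Rela-203, from the gene of the NF-κB subunit p65, is longer, at 786 nt. The kallisto layout gave Rps23-202 a scaled TPM of 43.2 in replicate 1 and Pf4-202 under 1 in every library, so the 0 of Rps23-202 in replicate 1 did not recur there. In all, 21 members were listed at 0 in at least 1 library, 14 of them in replicate 1.

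Replicate 2 was the lowest library for 506 members (58.8%), against 53.1% of all 14029 transcripts. On counts scaled by TMM the share was 40.1% of members against 15.2% of all transcripts. Replicate 2 was at least 1.5-fold below both other libraries for 283 members (32.9%), against 6.69% of all transcripts. As a percent of the gene, which does not depend on scaling, replicate 2 was lowest for 46.4% of the 793 members with a mean IsoPct from 1 to 95, against 28.9% of all such transcripts. In the kallisto layout the latter shares were 49.5% and 27.6%.

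The deficit in replicate 2 was graded with the amount of sequence outside coding exons. For the 228 members with under 10% such sequence, the median of log2(replicate 2 / mean of replicates 1 and 3) was -0.08, and 7.89% were at least 1.5-fold below. For the 441 members with 10% to 50% the median was -0.28, and 28.6% were below. The 182 members with over 50% had a median of -1.89, and 74.2% were below. Malat1 had a value of -2.12 on this scale and Neat1 of -1.70. Replicates 1 and 3 differed far less, with a median log2 ratio of 0.17 for the last bin. The kallisto layout gave -0.16, -0.39 and -1.92 for the 3 bins, and counts scaled by TMM gave 0.28, 0.06 and -1.58.

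The same order held among retained_intron transcripts that the rule did not take. Of those below the threshold with a mean count of at least 10, the 446 with under 10% extra sequence had a median of -0.26, the 1951 with 10% to 50% of -1.0, and the 2564 with over 50% of -1.83. All retained_intron transcripts of protein-coding genes took 3.59%, 3.09% and 3.61% of the TPM of those genes in replicates 1, 2 and 3. The members alone took 2.70%, 2.64% and 2.71%, a spread of 0.0361 percentage points (SD, n = 3), and those below the threshold 0.895%, 0.447% and 0.906%. In the RSEM layout the sum over members joins 2 orders. Members with a whole intron took 0.642%, 0.502% and 0.610%, lowest in replicate 2. Those with part of an intron took 2.03%, 2.12% and 2.08%, highest in replicate 2. Transcripts annotated for nonsense-mediated decay took 1.62%, 1.55% and 1.57%. In the kallisto layout all members took 3.08%, 2.79% and 2.77%. Those with a whole intron took 0.643%, 0.504% and 0.606% there, again lowest in replicate 2. Those with part of an intron took 2.42%, 2.28% and 2.16%, highest in replicate 1, so the second order did not recur. The part of nuclear RNA, depth or any other property of replicate 2 in these differences was not tested.

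Examples of members with much extra sequence, named after their values were seen, are the 5 of Malt1, the gene of a protease in NF-κB signalling. Malt1-213, with 85.3% of its bases outside coding exons, was at TPM of 5.70, 0.83 and 5.21, and Malt1-203 was at 3.47, 0.40 and 2.84. All 5 were lowest in replicate 2. Ccl5-202, the highest member with over 50% extra sequence, from a chemokine gene, was at 37.1, 10.5 and 34.2. Of the 61 dominant members, 30 were lowest in replicate 2, 16 in replicate 1 and 14 in replicate 3. Rps20-201, Prelid1-202, Ncl-202 and Mrps26-201 were not lowest in replicate 2. Ifih1-203, with 61.1% extra sequence, had 19.9 in replicate 2 against 27.8 and 22.5, a smaller difference.

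**Figure D5:**
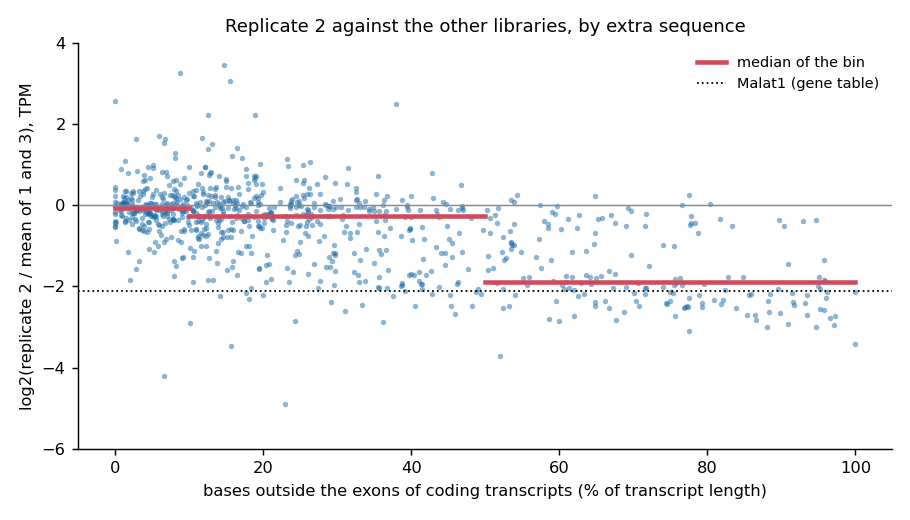
Share of bases outside the exons of coding transcripts (horizontal, percent of length) against log2 of replicate 2 over the mean of replicates 1 and 3 in TPM (vertical), for 851 members. Red bars are medians of the 3 bins, at -0.08, -0.28 and -1.89, the dotted line is Malat1 at -2.12, and 5 members lie outside the axis.

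The threshold divides transcripts of nearly equal level. Tpm3-207, Gsdmd-204 and Cops7a-205 were the lowest members, at mean TPM of 1.00, 1.01 and 1.01, and Fbxo38-203, Comtd1-201 and Rbm39-210 lay just outside, each at 0.997. Tpm3-207 was at 1.44, 0.32 and 1.24, so that it passed through replicates 1 and 3. In every library, 545 members were at TPM of at least 1, and the lower bound of the deposited credibility interval was at least 1 in every library for 409. The median member had 277 expected counts on average, and 1 had under 10.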

How the data were processed

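The 3 libraries were prepared, per the labels, from 1 µg of RNA depleted of ribosomal RNA, at sizes of 250 to 400 bp. For each there are values per gene and per transcript under RSEM column names, and values per transcript under kallisto column names. The text listings deposited with the libraries name mm10 and GENCODE M21. No aligner, version of a tool or setting for strand is given in the sources used here. The authors deposited expected counts (model estimates that need not be whole), TPM and FPKM per transcript, IsoPct, which is each transcript's percent of its gene, the posterior SD of the count (another measure, in counts) and credibility bounds of TPM, which were treated as a signal, per the file headers. The deposited expected counts summed to 31152786, 114031592 and 59693299, and TPM itself keeps no depth. TPM divides by an effective length, so short RNAs take a large share of its fixed total.

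Members and gene lists were chosen with earlier results of these data known. Transcript types, exons and sequences were read from the GENCODE M21 annotation and transcript file, and all 860 members matched. Each retained_intron transcript was compared with the protein_coding transcripts of its gene. Extra sequence is every base outside their exons, and a whole intron is one that lies inside an exon of the member. Frames were counted from annotated start codons. Kallisto-layout TPM was scaled per library to the RSEM-layout sum over nuclear protein-coding genes.

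Variation between libraries was tested with a heterogeneity chi-square (2 degrees of freedom) on expected counts scaled by TMM factors, which edgeR 4.0.16 in R 4.3.3 computed from rounded counts. The variance was the expected count plus the squared posterior SD, and Benjamini-Hochberg adjustment at 0.05 ran over all transcripts with a mean expected count of at least 10. The step was tested on simulated data, with changes placed in 1 library. It recovered 30% of changes of 1.25-fold, 32% of 1.5-fold, 46% of 2-fold and 66% of 3-fold, with 50 transcripts each. There were 2 false calls with 35004 transcripts tested. Many changes of these sizes were missed in the simulation. Only 200 transcripts were changed in it, whereas 43.0% of those tested were called in the data. The adjustment was therefore stricter in the simulation, and its recovery cannot be carried over to the data. Other values were computed with Python 3.11.15, pandas 2.3.3 and scipy 1.17.1.

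The members named are the 12 highest by TPM, the 15 dominant ones with the highest IsoPct and at least 10 counts, of the members called variable the 6 that spread most by the SD of log2(TPM + 1), the 5 largest ratios between layouts in each direction, the 3 on either side of the threshold, and up to 3 of each of 7 lists. A few items these rules name are not reported here. Any other member in the text was named after its values were seen. Alternatives were other thresholds, units, scalings and filters and leaving out each library.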

Additional observations from a re-analysis of the deposited data

Results flagged for a closer look

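The kallisto-layout tables hold 432 retained_intron transcripts with a scaled mean TPM of at least 1 that were below the threshold in the RSEM layout, so that 61.9% of the 1133 such transcripts there were members and 81.5% of the members were among them. They are given because the kallisto-layout values did not choose the members, with no control samples to set them against. These transcripts were picked as low in the RSEM layout and high in the other, from the same reads, so they are not independent evidence. The highest was Rpl27a-201, from a ribosomal protein gene, at scaled TPM of 22.1, 22.2 and 15.5 (mean 19.9) against a mean of 0.257 in the RSEM layout. Rpl31-204 had a mean of 17.1 against 0.177. In both, the kallisto-layout estimate was higher in all 3 libraries. Which estimate is nearer to the RNA was not tested. The outlier check was not run, because it needs at least 4 samples in a group.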

How the results depend on the processing

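The number of members depends on the threshold and unit: it was 1534 at mean TPM of at least 0.5, 482 at 2, 545 with TPM of at least 1 in every library, 1457 by FPKM, 409 by the lower credibility bound in every library and 2688 with TPM rescaled over transcripts of at least 500 nt. Dominant members numbered 107 at an IsoPct of 40 and 33 at 60, and in the kallisto layout 101 and 36. With kallisto-layout TPM as deposited, 402 members were at 1 or more and 202 within 2-fold. Members at least 1.5-fold lower in replicate 2 numbered 283. Leaving out each library gave 791 to 965 members, 61 to 62 dominant, 622 to 821 at 1 or more and 535 to 708 within 2-fold in the kallisto layout, 55 to 60 dominant there, and 207 to 417 called variable. Counts under the other alternatives lay within 1.5 times the reported ones. An alternative chosen after seeing the data, leaving out members that overlap an expressed gene on the other strand, left 804 members, 52 dominant, 576 within 2-fold and 472 lowest in replicate 2. No paired analysis was possible because the labels give 1 group. Replicate 1 has the fewest counts. Members listed at 0 numbered 14, 5 and 3 in replicates 1, 2 and 3, and a relation of these counts to depth was not tested.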
